A study of Homo sapiens with 12 samples.

Results

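The cytosolic ribosomal protein genes, whose products form the protein part of the large and small ribosomal subunits, were followed in HepG2 cells through sorafenib treatment and polysome fractionation. Members were taken by symbol alone, as RPL or RPS followed by a number with or without a final A or X, RPLP0 to RPLP2, and RPSA. This rule gave 77 genes of the 57353 rows of the count table, 46 of the large subunit and 31 of the small. HepG2 is a human liver cancer line, and sorafenib is a multikinase inhibitor given for hepatocellular carcinoma. Cultures received 10 µM sorafenib or its vehicle DMSO for 12 h, and cycloheximide, which holds ribosomes on mRNA, was added to all of them before lysis. Lysates were spun through sucrose gradients, and RNA was sequenced from a polysome pool and from a light pool, which took in complexes of low mass, unjoined subunits and single ribosomes. The submitters call the experiment ribosome profiling, whereas their protocol, as far as the labels give it, has libraries made from the RNA of the pooled fractions. Levels are therefore read as the amount of each mRNA in a pool, and if ribosome-protected fragments were sequenced they would stand for ribosomes on it instead. The 4 groups were sorafenib polysomes, vehicle polysomes, the sorafenib light fraction and the vehicle light fraction, with 3 libraries each. By the numbering in the labels these came from 6 cultures. All cells were labelled wild type, so nothing but drug and fraction set the groups apart in the labels, and all of them come from 1 cell line.

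Ribosomal protein mRNAs are the classical members of the TOP class. They begin with a cytosine followed by a run of pyrimidines, the terminal oligopyrimidine tract, and this tract places their translation under the control of mTORC1 through the binding protein LARP1 and repressors that bind the cap-binding protein eIF4E. When mTORC1 is less active, such mRNAs typically shift as a group out of polysomes and into light complexes, where they are stored. Both subunits are needed in equal numbers, so their proteins are usually made in step, and proteins left without a ribosome are degraded.

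Total counts ran from 511065 to 13336689 per library, and sorafenib light-fraction libraries 2 and 1 were the shallowest, with 511065 and 2060384. Log2 CPM of replicates correlated at 0.797 to 0.934 in the sorafenib light fraction and at 0.951 to 0.99 in the other groups. All 8 hepatocyte markers were detected, and their summed level was 30580 to 36930 CPM (counts scaled to library size) in sorafenib polysomes, against 7531 to 14900 in vehicle polysomes, and 27210 to 28790 in the sorafenib light fraction, against 4636 to 9858 in the vehicle light fraction. Not every marker moved with the sum. In the test described below 5 of the 8 rose with sorafenib and 1 fell on polysomes, and 4 rose and 1 fell in the light fraction. Over all genes tested 20.9% rose and 28.8% fell on polysomes, and 11.7% rose and 17.7% fell in the light fraction. TTR stood at 75.9 to 86.9 CPM in sorafenib polysomes, against 112 to 215 in vehicle polysomes. The 10 markers of blood, endothelial, fibroblast, bile duct and muscle cells summed to 364.8 to 548 CPM in sorafenib polysomes, 458 to 658 in vehicle polysomes, 196 to 321 in the sorafenib light fraction and 66.5 to 209.9 in the vehicle light fraction. Nearly all of that sum came from LYZ, at 328 to 510.3 CPM in sorafenib polysomes, 440.2 to 637 in vehicle polysomes, 155 to 287 in the sorafenib light fraction and 54.55 to 196 in the vehicle light fraction, and from CD68, at 8.80 to 35.0 CPM over all libraries. The other 8, those of T cells, endothelium, fibroblasts, bile duct and muscle among them, lay at 0 to 11.7 CPM in every library. Whether these shifts bear on the ribosomal protein genes was not tested. Levels below are CPM scaled by TMM, which gives each library a scaling factor that takes most genes as unchanged. Every change is thus relative to other genes. No unfractionated RNA was among the 12 libraries, so for any gene a shift in 1 fraction and a shift in the whole cell's mRNA cannot be told apart, nor can fewer cells and less RNA per cell. Fold changes are log2 values with their SE over 3 libraries a group, and adjusted p is from edgeR's quasi-likelihood test with Benjamini-Hochberg adjustment over 14955 genes, called under 0.05. All 77 members passed the filter on low counts. Ribosomal protein genes have many processed pseudogenes and several host small nucleolar RNAs in their introns, and the sources used here do not say how shared reads were assigned, so each level is uncertain to that extent.

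A start of C followed by at least 4 pyrimidines (C or T, on the gene's own strand) was looked for at the annotated starts in RefSeq, build GRCh38.p14. The table held 62 of the 77 members. The tract stood at base 1 of an annotated start in 46 of these 62 (74.2%), against 5.14% of the 27305 genes listed and 4.07% of the 35116 starts listed. The longest run, in RPL39, was 19 bases. The sequences below are those of the members on which the results turn, from 10 bases before the annotated start to 20 bases into the transcript, 5′ to 3′, with the first run of C and at least 4 pyrimidines from the start on in capitals.
RPS26, chr12:56041908-56041937, plus strand: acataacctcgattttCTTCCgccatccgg
RPL39, chrX:119791611-119791640, minus strand: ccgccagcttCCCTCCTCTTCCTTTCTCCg
RPL38, chr17:74203668-74203697, plus strand: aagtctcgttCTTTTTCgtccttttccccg
RPS21, chr20:62387093-62387122, plus strand: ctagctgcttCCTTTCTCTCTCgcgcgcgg
RPL35A, chr3:197950180-197950209, plus strand: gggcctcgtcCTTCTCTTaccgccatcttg
RPL3, chr22:39319604-39319633, minus strand: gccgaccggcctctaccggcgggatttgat
RPL4, chr15:66504836-66504865, minus strand: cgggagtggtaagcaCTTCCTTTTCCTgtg
RPS4X, chrX:72277229-72277258, minus strand: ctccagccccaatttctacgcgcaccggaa
RPL11, chr1:23691796-23691825, plus strand: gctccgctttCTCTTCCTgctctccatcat
RPLP0, chr12:120201092-120201121, minus strand: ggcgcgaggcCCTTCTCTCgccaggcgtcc
RPS6, chr9:19380217-19380246, minus strand: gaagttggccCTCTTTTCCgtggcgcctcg
In 7 of these 11 the run began at base 1. In RPS26 it began at base 7 and in RPL4 at base 6, whereas RPL3 and RPS4X held none from the annotated start on. In RPL3 the annotated start opened with a run of 4, which is 1 base short of the motif searched, and the base just before the start was also a C, so the motif is complete from that base. The absence of a run says only that these letters are not at the annotated start, since a start used in HepG2 cells can lie elsewhere.

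Ribosomal protein genes took up a large part of the light fraction's RNA and a smaller part of the polysomes', and sorafenib libraries held less of them in both fractions. They made up 8.87%, 8.88% and 7.16% of all counts in sorafenib polysomes, against 12.0%, 11.1% and 9.87% in vehicle polysomes. Their share of light-fraction counts was 21.9%, 18.1% and 23.1% with sorafenib, against 30.9%, 28.3% and 34.9% with vehicle. The treatments' libraries did not overlap in either fraction, and the means were 8.30 ± 0.99% with sorafenib against 11.0 ± 1.1% with vehicle on polysomes and 21.0 ± 2.6% against 31.3 ± 3.3% in the light fraction (SD, n = 3 each). These sums are described without a test. Mitochondrial transcripts, which cytosolic ribosomes do not read, took 0.312% to 0.613% of sorafenib polysome counts, against 0.772% to 1.08% in vehicle polysomes, and 7.98% to 9.86% of sorafenib light counts, against 8.87% to 14.3% in the vehicle light fraction. Their part in the member shares was not tested.

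The balance of the subunits was nearly even in all groups. There were 1.00, 1.05 and 1.05 large-subunit counts per small-subunit count in sorafenib polysomes, against 1.06, 1.03 and 0.943 in vehicle polysomes, and the groups overlapped. In the light fraction the ratio was 1.09, 1.35 and 1.03 with sorafenib, against 1.05, 1.10 and 0.998 with vehicle, where the shallowest library, number 2 of the sorafenib light fraction, stood highest and the remaining sorafenib libraries lay within the vehicle range. The mean ratio was 1.04 ± 0.03 in sorafenib polysomes, 1.01 ± 0.06 in vehicle polysomes, 1.16 ± 0.17 in the sorafenib light fraction and 1.05 ± 0.05 in the vehicle light fraction (SD, n = 3 each). The 3 members with the most counts in each subunit were RPL13A, RPL37A and RPLP0 for the large subunit and RPS27A, RPS3 and RPS19 for the small, and the largest of them, RPS27A, held 5.20% of all member counts.

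**Figure D1:**
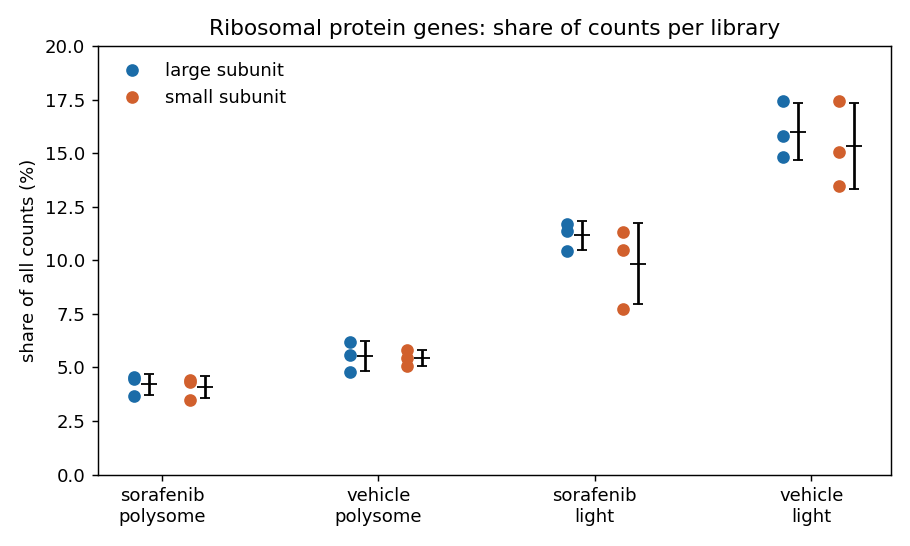
Share of all counts (%) taken by large-subunit and small-subunit ribosomal protein genes in each library, with the group means. Sorafenib polysomes stand left of vehicle polysomes and the sorafenib light fraction left of the vehicle light fraction, and in each subunit the sorafenib libraries lie below the vehicle libraries of the same fraction.

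In vehicle-treated cells nearly all ribosomal protein mRNAs were lower in polysomes than in the light fraction. Of the 77 members 76 fell and 1, RPS26, rose, where 17.8% of all genes tested fell and 18.3% rose. The members' median log2 difference, polysomes over light fraction, was -2.37, with -2.38 in the large and -2.37 in the small subunit, against -0.06 for all genes tested. In 76 members every polysome library lay below every light library, which was so for 25.1% of all genes, and in RPS26 every polysome library lay above. The members at the low end were RPLP1 at -3.60, RPS2 at -3.57 and RPS12 at -3.50. RPLP1 encodes an acidic protein of the stalk that recruits elongation factors. It stood at 1518, 1113 and 965 CPM in vehicle polysomes, against 14650, 13530 and 15470 CPM in the vehicle light fraction. RPS12, a small-subunit protein, stood at 1724, 1093 and 1261 CPM in vehicle polysomes, against 15840, 13130 and 17240 CPM in the vehicle light fraction. RPS2, a protein near the mRNA entry channel, stood at 953, 1075 and 1027 CPM in vehicle polysomes, against 11680, 11080 and 13550 CPM in the vehicle light fraction. In each of these the fractions lay several-fold apart with replicates close together.

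RPS26 was the exception in vehicle cells. Its product sits at the mRNA exit channel of the small subunit, and the gene is mutated in some families with Diamond-Blackfan anaemia. It stood at 789, 756 and 729 CPM in vehicle polysomes, against 273, 276 and 374 CPM in the vehicle light fraction, and the polysome libraries were all above the light ones. The log2 difference was 1.30 ± 0.25 (SE, edgeR adjusted p = 0.000431), and its direction and call held in all alternatives of scaling, filter and tool and with each library left out. The members nearest to RPS26 were RPL35A, at -1.03 ± 0.27 (SE, edgeR adjusted p = 0.00499), and RPL38, at -1.31 ± 0.30 (SE, edgeR adjusted p = 0.00205). RPL35A, a large-subunit protein whose gene is also mutated in Diamond-Blackfan anaemia, stood at 1149, 1206 and 869.7 CPM in vehicle polysomes, against 1992, 2124 and 2483 CPM in the vehicle light fraction. RPL38 is a small protein of the large subunit that in mice is needed for the translation of certain Hox mRNAs. It stood at 1122, 733 and 666 CPM in vehicle polysomes, against 2137, 2144 and 1954 CPM in the vehicle light fraction. RPL36A followed at -1.43, with 956, 839 and 597 CPM in vehicle polysomes, against 2264, 1777 and 2407 CPM in the vehicle light fraction. These 3 were lower in polysomes with no overlap, by less than most members. Scaled to library totals alone, RPL35A at -0.15 and RPL38 at -0.42 did not pass.

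In sorafenib-treated cells the polysome pool also held less of almost every member. Here 75 of 77 fell and 0 rose, where 12.4% of all genes tested fell and 13.4% rose, and 0 were higher with DESeq2 or at an unadjusted p under 0.05. The median log2 difference was -1.87, with -2.12 in the large and -1.76 in the small subunit, against -0.00 for all genes tested. The 75 falls became 54 without sorafenib light-fraction library 3 (13.4% of all genes) and 65 without library 1 of that group (6.11%). Without the low-count filter they numbered 61 (5.42%). In 66 members every sorafenib polysome library lay below every sorafenib light library (16.3% of all genes), and 11 overlapped. The members that did not pass were RPL3, at 0.16 ± 0.33 (SE, edgeR adjusted p = 0.768), and RPL11, at -0.40 ± 0.37 (SE, edgeR adjusted p = 0.461). RPL3 encodes a core large-subunit protein next to the peptidyl transferase centre. It stood at 2012, 1689 and 1490 CPM in sorafenib polysomes, against 1334, 832 and 2472 CPM in the sorafenib light fraction, and the pools overlapped. RPL11 forms the 5S ribonucleoprotein with RPL5 and can bind MDM2 when ribosome assembly is disturbed. It stood at 467, 716 and 452 CPM in sorafenib polysomes, against 669, 271 and 1202 CPM in the sorafenib light fraction, with library 2 of the light fraction below all polysome libraries. RPL3 was called higher in polysomes without sorafenib light-fraction library 3, at 1.00, and RPL11 was called lower without sorafenib light-fraction libraries 1 and 2 together, at -1.01.

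RPL39, one of the smallest ribosomal proteins, which lines the exit tunnel, was the lowest member in this comparison, at -3.65 ± 0.46 (SE, edgeR adjusted p = 2.97e-05). It stood at 56.6, 151 and 66.3 CPM in sorafenib polysomes, against 979, 1221 and 1237 CPM in the sorafenib light fraction, with every polysome library far below. RPL23A, an exit-tunnel rim protein, stood at 834, 804 and 521 CPM in sorafenib polysomes, against 5171, 9623 and 2889 CPM in the sorafenib light fraction, a log2 difference of -3.03. Its highest light value came from the shallowest library, but the fractions did not overlap. RPL32 at -2.99 and RPS29 at -2.71 were the next lowest. RPL32 had 156, 240.2 and 150.0 CPM in sorafenib polysomes, against 1609, 658 and 2069 CPM in the sorafenib light fraction. RPS29, a zinc-finger protein of the small subunit, had 305, 369 and 272 CPM in sorafenib polysomes, against 2149, 1999 and 2062 CPM in the sorafenib light fraction. Neither overlapped between fractions. RPS26, which was higher in polysomes in vehicle cells, was lower in polysomes in sorafenib cells, at -1.14 ± 0.25 (SE, edgeR adjusted p = 0.00257), with 190.4, 231 and 159.6 CPM in sorafenib polysomes, against 517, 359 and 404 CPM in the sorafenib light fraction. That fall was lost without sorafenib light-fraction library 1 and without the filter on low counts.

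**Figure D2:**
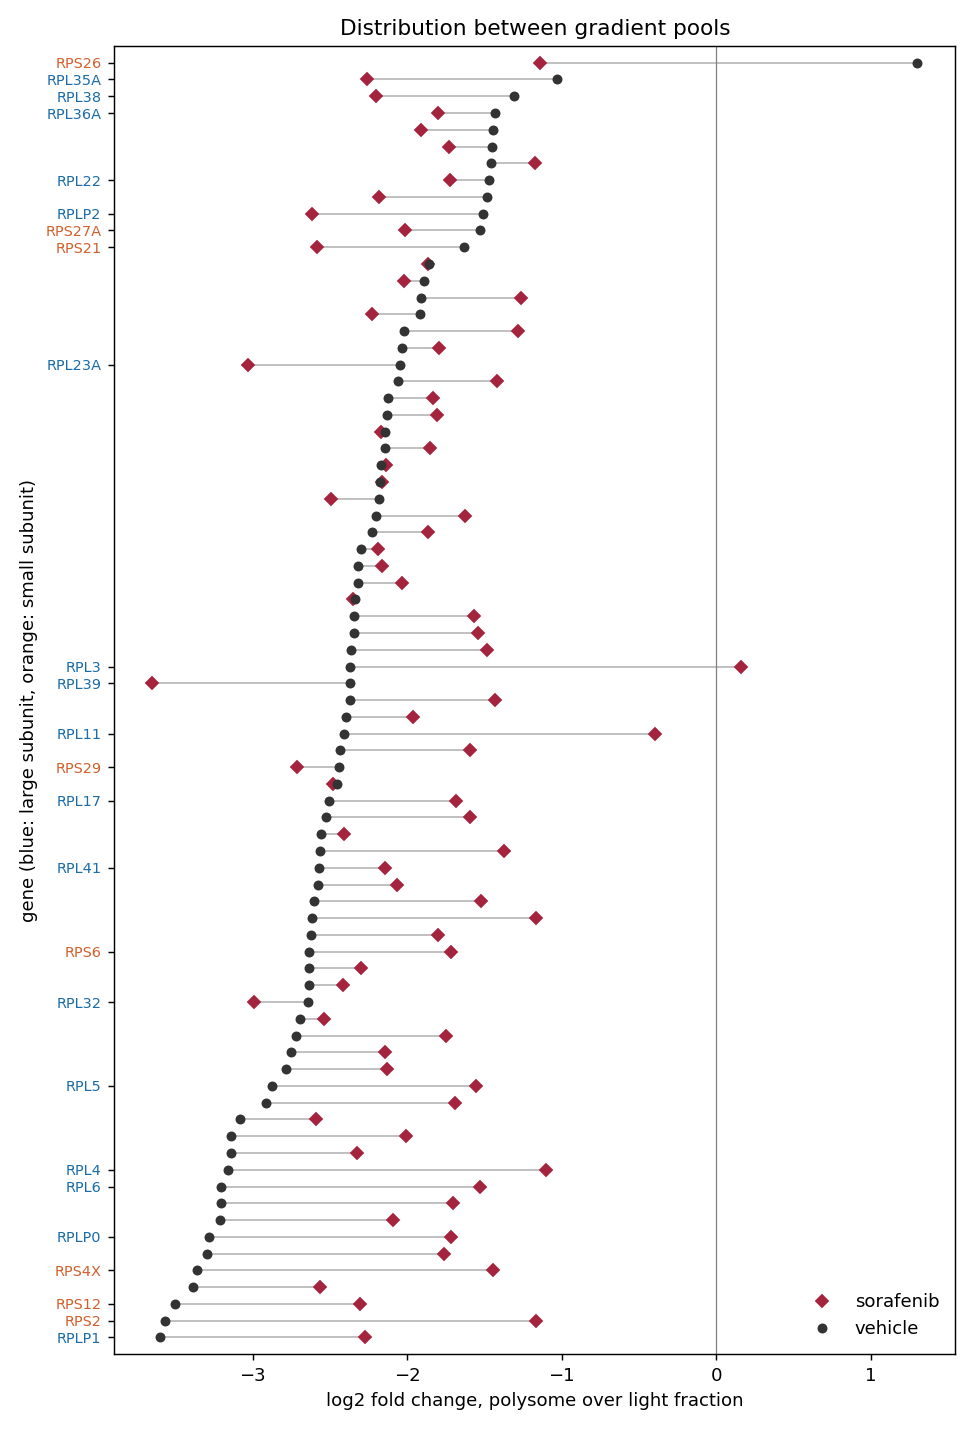
Log2 fold change of polysomes over the light fraction for each of the 77 ribosomal protein genes, some of them labelled, with sorafenib-treated cells as diamonds and vehicle-treated cells as circles joined by a line. All vehicle values but that of RPS26 (1.30) lie below 0, and in sorafenib cells RPL3 alone lies above 0, at 0.16, a value that did not pass the test.

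On polysomes, sorafenib lowered a part of the ribosomal protein mRNAs and raised RPL3 and RPL4. Of 77 members 29 fell (37.7%) and 2 rose, where 28.8% of all genes tested fell and 20.9% rose, so the share that fell was not far above that of all genes. The median log2 change, sorafenib over vehicle, was -0.66, with -0.69 in the large subunit (19 fell and 2 rose of 46) and -0.61 in the small (10 fell and 0 rose of 31), against -0.26 for all genes tested. Relative to all genes the members' median was thus -0.40. With other libraries as the TMM reference the median of all genes moved to between -0.22 and -0.01, whereas the members' median relative to it stayed at -0.41 to -0.40. All 3 sorafenib polysome libraries lay below all vehicle polysome libraries in 47 members (35.0% of all genes) and above in 5 (25.3%). The count of falls rests on the libraries and the scaling. The share of all genes that fell moved too, to 3.63% without the low-count filter and to 15.8% to 24.9% with 1 library left out. The members' count was 11 under 1 choice of TMM reference, 4 without the low-count filter and 37 with DESeq2. It was 9, 8 and 10 without vehicle light-fraction libraries 1, 2 and 3, 14 and 17 without vehicle polysome libraries 1 and 2, 9 and 12 without sorafenib light-fraction libraries 1 and 3, and 13 and 10 without sorafenib polysome libraries 1 and 3.

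The 4 falls that headed the order held in all 32 alternatives. RPS26 fell most, with 190.4, 231 and 159.6 CPM in sorafenib polysomes, against 789, 756 and 729 CPM in vehicle polysomes, a log2 change of -1.97 ± 0.25 (SE, edgeR adjusted p = 8.11e-06). All sorafenib libraries lay far below, and both groups were tight. RPL39 stood at 56.6, 151 and 66.3 CPM in sorafenib polysomes, against 626, 246 and 168 CPM in vehicle polysomes, a change of -1.93 ± 0.42 (SE, edgeR adjusted p = 0.0011). Vehicle library 1 was well above the others of its group, and sorafenib library 2 came close to vehicle library 3 without reaching it. RPL38 stood at 253, 377 and 237 CPM in sorafenib polysomes, against 1122, 733 and 666 CPM in vehicle polysomes, a change of -1.54 ± 0.30 (SE, edgeR adjusted p = 0.000402). RPS21, which in yeast is needed to process the small subunit's RNA, stood at 749, 987 and 664 CPM in sorafenib polysomes, against 2999, 2069 and 1703 CPM in vehicle polysomes, a change of -1.497 ± 0.31 (SE, edgeR adjusted p = 0.00073). Vehicle library 1 was the highest in both, and the treatments did not overlap.

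Next in order came RPL35A at -1.32 and the stalk protein RPLP2 at -1.30. RPL35A stood at 419, 512 and 361 CPM in sorafenib polysomes, against 1149, 1206 and 869.7 CPM in vehicle polysomes (edgeR adjusted p = 0.000553). RPLP2 stood at 1446, 1176 and 1122 CPM in sorafenib polysomes, against 3081, 3763 and 2355 CPM in vehicle polysomes (edgeR adjusted p = 0.00355). Both were lower without overlap and lost the call only without the low-count filter. RPL32 fell by 1.21 on the log2 scale, with 156, 240.2 and 150.0 CPM in sorafenib polysomes, against 634, 319.8 and 314 CPM in vehicle polysomes, and RPS29 fell by 1.12, with 305, 369 and 272 CPM in sorafenib polysomes, against 945, 562 and 548 CPM in vehicle polysomes. Vehicle library 1 again stood above its group in both. In all, 13 of the 77 members fell by at least 2-fold on polysomes, next to 2976 of the 14955 genes tested. Such falls were thus no more frequent among the members than among all genes. The others of the 13 were RPL35, RPS14, RPL24, RPL26 and RPL36.

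The members that rose on polysomes were proteins of the large subunit's core. RPL3 stood at 2012, 1689 and 1490 CPM in sorafenib polysomes, against 757, 791 and 999.6 CPM in vehicle polysomes, a log2 change of 1.03 ± 0.33 (SE, edgeR adjusted p = 0.0158). RPL4, which reaches into the exit tunnel, stood at 2116, 2167 and 1543 CPM in sorafenib polysomes, against 1187, 1009 and 1023 CPM in vehicle polysomes, a change of 0.86 ± 0.32 (SE, edgeR adjusted p = 0.0312). Every sorafenib library was above every vehicle library in both. The RPL3 rise lost its call without vehicle polysome library 1 or 2 or sorafenib polysome library 1, and the RPL4 rise without vehicle polysome library 1, 2 or 3 or sorafenib polysome library 1 or 2. Without sorafenib light-fraction library 2 the members that rose numbered 5, where 27.8% of all genes tested rose. Of the 3 further members with no overlap and higher values, none passed. RPS2 stood at 1820, 1428 and 1304 CPM in sorafenib polysomes, against 953, 1075 and 1027 CPM in vehicle polysomes (0.57, edgeR adjusted p = 0.202). RPS4X, a small-subunit protein, stood at 454, 517 and 398 CPM in sorafenib polysomes, against 364, 287 and 272 CPM in vehicle polysomes (0.57, edgeR adjusted p = 0.136). RPL11 stood at 467, 716 and 452 CPM in sorafenib polysomes, against 402, 331 and 419 CPM in vehicle polysomes (0.50, edgeR adjusted p = 0.268). RPL3, RPL4 and RPS26 lay beyond 1.5 interquartile ranges outside the quartiles of the 77 changes.

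In the light fraction the members fell more widely. Of 77 members 55 fell and 0 rose, where 17.7% of all genes tested fell and 11.7% rose (DESeq2 called 1 higher, and 0 were higher at an unadjusted p under 0.05). The median log2 change was -1.09, with -1.03 in the large subunit (29 of 46 fell) and -1.14 in the small (26 of 31 fell), against -0.12 for all genes tested. With each of the 11 other TMM references the members' median lay at -1.025 to -0.96 and that of all genes at -0.05 to -0.0006. Here too both medians of the main fit were lower than with any other reference. The members' median relative to all genes stayed at -0.97 to -0.96. All sorafenib light libraries lay below all vehicle light libraries in 64 members (24.6% of all genes), and the other 13 overlapped. The count moved with the libraries kept, and so did the share of all genes that fell, to 9.12% to 17.7% with 1 library left out. Without sorafenib light-fraction libraries 1 and 2 together, which leaves 1 library in that group that is assumed to vary like the others, 4 members fell, and the median was -0.57. Without library 1 alone 19 fell and without library 2 alone 36 fell, whereas without vehicle light-fraction libraries 1 and 2 it was 23 and 31.

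The largest falls in the light fraction were in RPL6, RPS2, RPLP1 and RPL17. RPL6, a large-subunit protein, stood at 656, 266 and 1234 CPM in the sorafenib light fraction, against 2933, 2938 and 2082 CPM in the vehicle light fraction, a log2 change of -1.87 ± 0.39 (SE, edgeR adjusted p = 0.00156). RPS2 stood at 3573, 1352 and 5257 CPM in the sorafenib light fraction, against 11680, 11080 and 13550 CPM in the vehicle light fraction, a change of -1.83 ± 0.38 (SE, edgeR adjusted p = 0.00156). Library 2 was the lowest and library 3 the highest of the sorafenib group in both, and all 3 lay below the vehicle range. RPLP1 stood at 4403, 2299 and 5700 CPM in the sorafenib light fraction, against 14650, 13530 and 15470 CPM in the vehicle light fraction, a change of -1.81 ± 0.34 (SE, edgeR adjusted p = 0.000795). RPL17, which lines the exit tunnel, stood at 1175, 338 and 2297 CPM in the sorafenib light fraction, against 4430, 4097 and 4222 CPM in the vehicle light fraction, a change of -1.74 ± 0.43 (SE, edgeR adjusted p = 0.0058). RPL17 spread widely within the sorafenib group, and its call was lost without library 1. RPS2, RPLP1 and RPLP0 kept their calls in all 32 alternatives, the omission of both shallow libraries included, whereas RPL6 did not pass without both.

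RPS26 and RPL23A stood apart from the other members here. RPS26 had 517, 359 and 404 CPM in the sorafenib light fraction, against 273, 276 and 374 CPM in the vehicle light fraction, a log2 change of 0.47 ± 0.25 (SE, edgeR adjusted p = 0.152). RPL23A had 5171, 9623 and 2889 CPM in the sorafenib light fraction, against 5558, 4139 and 6685 CPM in the vehicle light fraction, a change of 0.11 ± 0.38 (SE, edgeR adjusted p = 0.856). Both overlapped between treatments, and for RPL23A library 2 alone lay above the vehicle range. RPL35A, at 2227, 2250 and 1725 CPM in the sorafenib light fraction, against 1992, 2124 and 2483 CPM in the vehicle light fraction, changed by -0.09 and did not pass. RPLP2, at 7798, 9926 and 5280 CPM in the sorafenib light fraction, against 8046, 6360 and 11750 CPM in the vehicle light fraction, changed by -0.19 and did not pass either. RPL39, at 979, 1221 and 1237 CPM in the sorafenib light fraction, against 1989, 1939 and 1456 CPM in the vehicle light fraction, was below in every library without passing (-0.65, edgeR adjusted p = 0.247). So the 6 members that headed the polysome falls had log2 changes of -0.65 to 0.47 in the light fraction, none of which passed the test.

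The members that headed another comparison were set side by side as well. RPL38 stood at 1551, 911 and 1521 CPM in the sorafenib light fraction, against 2137, 2144 and 1954 CPM in the vehicle light fraction (-0.64, not passing). RPS21 stood at 4656, 4601 and 5134 CPM in the sorafenib light fraction, against 7975, 4985 and 8091 CPM in the vehicle light fraction (-0.55, not passing). The first had no overlap and the second did, through vehicle library 2. RPL32 stood at 1609, 658 and 2069 CPM in the sorafenib light fraction, against 2786, 2574 and 2549 CPM in the vehicle light fraction (-0.86, not passing). RPS29 stood at 2149, 1999 and 2062 CPM in the sorafenib light fraction, against 4215, 2862 and 4101 CPM in the vehicle light fraction, a fall of 0.85 called in 10 of 32 alternatives, which any omission of a light-fraction library ended. RPL36A, a large-subunit protein with the close paralogue RPL36AL, overlapped between treatments in both fractions. It stood at 408, 681 and 339 CPM in sorafenib polysomes, against 956, 839 and 597 CPM in vehicle polysomes, a fall of 0.74 called in 5 of 32 alternatives, and at 1600, 1795 and 1590 CPM in the sorafenib light fraction, against 2264, 1777 and 2407 CPM in the vehicle light fraction.

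RPS12, which was among the lowest in polysomes in vehicle cells, fell in the light fraction. It stood at 5413, 2046 and 7621 CPM in the sorafenib light fraction, against 15840, 13130 and 17240 CPM in the vehicle light fraction, a fall of 1.61. The call did not hold without both shallow libraries. On polysomes RPS12 stood at 1153, 1061 and 837 CPM with sorafenib, against 1724, 1093 and 1261 CPM with vehicle, and did not pass. RPL6 stood at 228, 289 and 236 CPM in sorafenib polysomes, against 345, 284 and 233 CPM in vehicle polysomes, and RPLP1 at 882, 992 and 690.3 CPM in sorafenib polysomes, against 1518, 1113 and 965 CPM in vehicle polysomes, with overlap in both. RPL17 stood at 397, 433 and 359 CPM in sorafenib polysomes, against 872, 591 and 781 CPM in vehicle polysomes, lower in each library without passing (-0.92, edgeR adjusted p = 0.0799). RPL23A stood at 834, 804 and 521 CPM in sorafenib polysomes, against 1137, 1821 and 1009 CPM in vehicle polysomes, again lower in each library without passing (-0.88, edgeR adjusted p = 0.066).

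By calls, 14 members fell in both fractions, 15 fell on polysomes without a call in the light fraction, 39 fell in the light fraction without a call on polysomes, 2 rose on polysomes and fell in the light fraction, and 7 passed in neither. Falls were called in 28.8% of all genes tested on polysomes and in 17.7% in the light fraction, and rises in 20.9% on polysomes. The split itself was not made over all genes, so its counts describe the members only. A call in one fraction and not in the other does not show a difference, which was tested on its own.

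**Figure D3:**
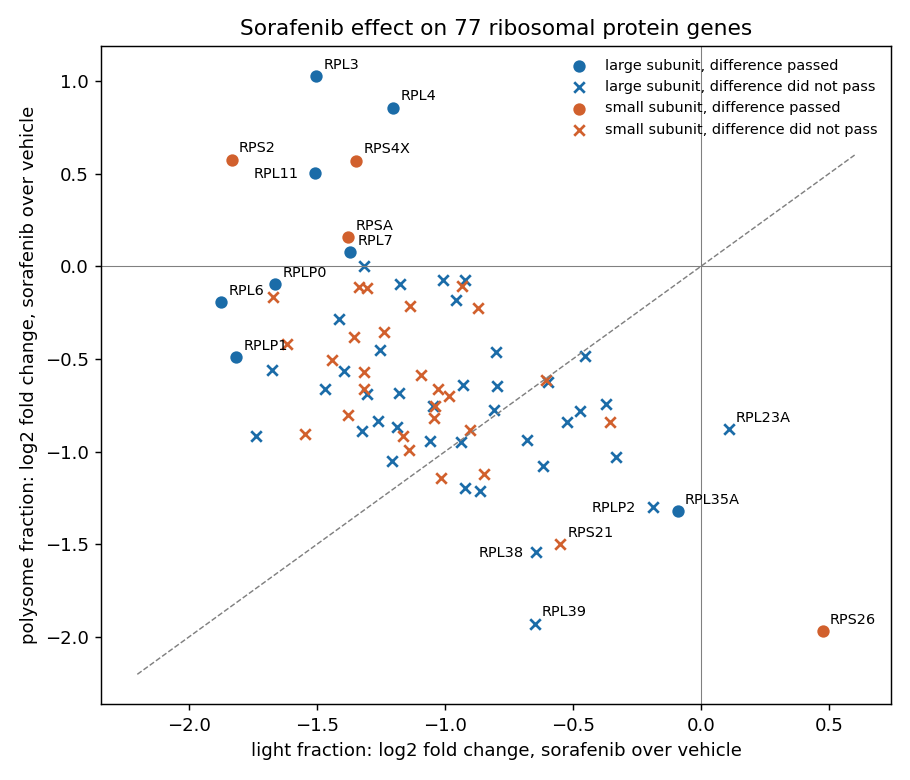
Log2 fold change, sorafenib over vehicle, of the 77 ribosomal protein genes on polysomes (vertical axis) and in the light fraction (horizontal axis), by subunit, with dots where the difference between the fractions passed the test, crosses where it did not, and a dashed line where both changes are equal. Most members lie below 0 on both axes, RPS26 (-1.97 and 0.47) sits at the lower right, and RPL3 (1.03 and -1.502) and RPL4 (0.86 and -1.20) sit at the upper left.

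The sorafenib effect differed between polysomes and the light fraction in 12 members. It was higher on polysomes in 10, of which 7 were of the large and 3 of the small subunit, and lower in 2, where 12.8% of all genes tested were higher and 10.7% lower. The members' median difference was 0.43, against 0.02 for all genes. RPL3 led with a log2 difference of 2.53 ± 0.47 (SE, edgeR adjusted p = 0.000887), then RPS2 with 2.41 ± 0.53 (SE, edgeR adjusted p = 0.00292), RPL4 with 2.06 ± 0.45 (SE, edgeR adjusted p = 0.00282), RPL11 with 2.01 ± 0.53 (SE, edgeR adjusted p = 0.0101) and RPS4X with 1.92 ± 0.44 (SE, edgeR adjusted p = 0.00429). RPL3 had 1334, 832 and 2472 CPM in the sorafenib light fraction, against 4314, 4309 and 4549 CPM in the vehicle light fraction, and RPL11 had 669, 271 and 1202 CPM with sorafenib, against 2334, 2108 and 1680 CPM with vehicle. Both fell there without overlap. RPS4X had 1359, 632 and 1732 CPM in the sorafenib light fraction, against 3543, 2990 and 2961 CPM in the vehicle light fraction, where its fall of 1.35 on the log2 scale passed. RPL4 had 5317, 2487 and 4685 CPM in the sorafenib light fraction, against 9439, 7990 and 11330 CPM in the vehicle light fraction, a fall of 1.20 that passed as well. In all 5 the polysome value was above 0 and the light-fraction value below it. RPL6 (1.68), RPLP0 (1.57), RPSA (1.53), RPL7 (1.45) and RPLP1 (1.33) also passed, with polysome changes of -0.49 to 0.16 that did not pass on their own.

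RPS26 differed most in the other direction, at -2.44 ± 0.35 (SE, edgeR adjusted p = 0.000114). The other member called lower was RPL35A, at -1.23 ± 0.37 (SE, edgeR adjusted p = 0.0224). RPL39 lay slightly below RPL35A, at -1.28 ± 0.58, without passing (SE, edgeR adjusted p = 0.12). The difference held for RPS26, RPL3, RPS2, RPL4, RPL11, RPS4X and RPLP0 in all 30 alternatives. It was less stable for RPL6 (23 of 30), RPL35A (18 of 30) and RPLP1 (14 of 30). Leaving out a single library ended the RPL35A call for vehicle light-fraction library 1, 2 or 3, vehicle polysome library 1 or 2, sorafenib light-fraction library 1 or 3 and sorafenib polysome library 1 or 3. Leaving out sorafenib light-fraction library 3 raised the number of members with a higher difference to 30, and the share of all genes to 17.3%. With the culture as a block RPLP1 lost its call (edgeR adjusted p = 0.0566), whereas RPL10, RPL5 and RPS27 gained one.

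The members were also set against each other, which needs no scaling between libraries. Of every 1000 counts in ribosomal protein genes, RPS26 took 2.84, 3.41 and 3.15 in sorafenib polysomes, against 8.06, 8.09 and 9.11 in vehicle polysomes, and 1.96, 2.07 and 1.50 in the sorafenib light fraction, against 0.562, 0.670 and 0.700 in the vehicle light fraction. The ratio of means, sorafenib over vehicle, was 0.372 on polysomes and 2.86 in the light fraction, and the ratio of polysomes over the light fraction was 1.70 with sorafenib, against 13.1 with vehicle. The other members' ratios of polysomes over the light fraction in vehicle cells reached no more than 2.55, in RPL35A. RPL3 took 30.0, 24.9 and 29.4 of every 1000 in sorafenib polysomes, against 7.74, 8.47 and 12.5 in vehicle polysomes, a ratio of 2.94. RPL4 took 31.6, 31.9 and 30.4 in sorafenib polysomes, against 12.1, 10.8 and 12.8 in vehicle polysomes, a ratio of 2.63. On polysomes RPS4X (2.18), RPS2 (2.17) and RPL11 (2.05) also reached at least 2-fold, and RPL39 at 0.393 joined RPS26 below 0.5, against a median ratio of 0.925. In the light fraction RPL23A took 19.6, 55.5 and 10.8 in sorafenib libraries, against 11.4, 10.0 and 12.5 in vehicle libraries, with library 2 far above the others of its group.

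**Figure D4:**
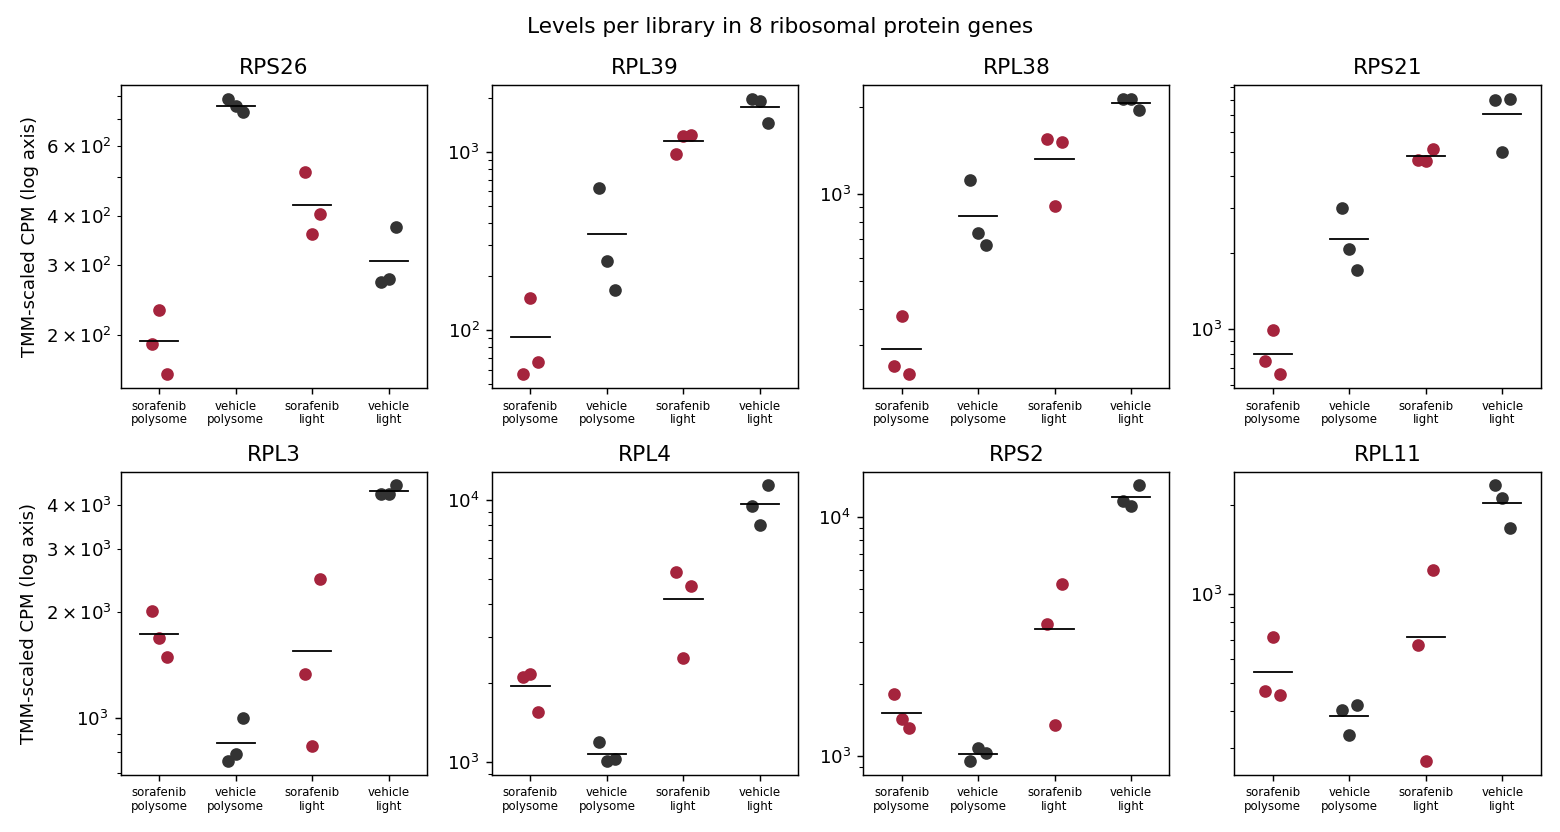
Levels (TMM-scaled CPM, log axis) of 8 ribosomal protein genes in each of the 12 libraries, with 4 groups per panel, sorafenib left of vehicle within polysomes and within the light fraction. RPS26 is the 1 panel in which vehicle polysomes lie above the vehicle light fraction (729 to 789 against 273 to 374 CPM).

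Some members known as controls, as signalling targets or for roles outside the ribosome were followed singly. RPLP0, the base of the stalk and often a control for normalisation, stood at 1706, 1703 and 1358 CPM in sorafenib polysomes, against 2113, 1670 and 1310 CPM in vehicle polysomes (-0.10, edgeR adjusted p = 0.813). In the light fraction it stood at 5754, 3668 and 6259 CPM with sorafenib, against 16400, 15370 and 17820 CPM with vehicle, a fall of 1.66 on the log2 scale (edgeR adjusted p = 0.000785). The treatments thus overlapped on polysomes and lay well apart in the light fraction. RPS6, the substrate of S6 kinase, stood at 1669, 1832 and 1299 CPM in sorafenib polysomes, against 2008, 1918 and 1634 CPM in vehicle polysomes (-0.21, edgeR adjusted p = 0.587). Its light-fraction level was 5853, 3273 and 6605 CPM with sorafenib, against 12040, 10050 and 12460 CPM with vehicle, a fall of 1.13 that was lost without vehicle light-fraction library 1 or sorafenib light-fraction library 1. RPL5, the partner of RPL11, stood at 723, 852 and 686 CPM in sorafenib polysomes, against 1036, 596 and 624 CPM in vehicle polysomes (0.00, edgeR adjusted p = 0.996). Its level in the light fraction was 2329, 995 and 3304 CPM with sorafenib, against 5747, 5783 and 5011 CPM with vehicle, a fall of 1.32 lost without vehicle light-fraction library 1 or 2 or sorafenib light-fraction library 1.

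A further 3 members were followed for their make-up. RPL41, the shortest ribosomal protein, stood at 578, 686 and 449 CPM in sorafenib polysomes, against 1145, 865 and 1039 CPM in vehicle polysomes, and at 3315, 1418 and 2829 CPM in the sorafenib light fraction, against 5768, 4946 and 7409 CPM in the vehicle light fraction. RPL22, whose gene is often mutated in cancers with microsatellite instability, stood at 543, 617 and 429 CPM in sorafenib polysomes, against 1035, 1075 and 927 CPM in vehicle polysomes, and at 2263, 1017 and 1956 CPM in the sorafenib light fraction, against 2993, 2389 and 3026 CPM in the vehicle light fraction. RPS27A, made as a fusion with ubiquitin, stood at 4279, 4411 and 3094 CPM in sorafenib polysomes, against 6196, 8783 and 6109 CPM in vehicle polysomes, and at 19730, 15920 and 11990 CPM in the sorafenib light fraction, against 19160, 14710 and 27010 CPM in the vehicle light fraction. All 3 fell on polysomes without overlap, by 0.83, 0.93 and 0.84 on the log2 scale. In the light fraction RPL41 fell by 1.26, whereas RPL22 at -0.68 and RPS27A at -0.35 did not pass. The polysome calls were fragile, with RPL41 called in 6, RPL22 in 17 and RPS27A in 2 of 32 alternatives, and many omissions of a single library ended them. Of 19 members whose genes are mutated in Diamond-Blackfan anaemia, a failure of red cell formation, 9 fell on polysomes and 14 in the light fraction with a median of -0.77 and -1.03, next to -0.66 and -1.09 for all 77 members. Of all genes tested 28.8% fell on polysomes and 17.7% in the light fraction.

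The members were also split by whether an annotated start held the tract. On polysomes the median log2 change with sorafenib was -0.67 in the 46 with it (19 fell and 0 rose) and -0.63 in the 16 without it (7 fell and 2 rose). The light-fraction medians were -1.03 with it (30 fell) and -1.05 without it (12 fell). For polysomes over the light fraction the medians were -2.36 with it and -2.41 without it in vehicle cells. In sorafenib cells they were -2.02 with it and -1.59 without it. The median difference of the sorafenib effect, polysomes minus light fraction, was 0.29 with it and 0.55 without it. None of these gaps between the sets was tested. Over all genes tested 28.8% fell and 20.9% rose on polysomes, and 17.7% fell in the light fraction. RPS26, RPL3, RPL4 and RPS4X, which stood apart above, were among the 16 without it, RPL3 with a run of 4 bases there. In RPL4 and RPS26 a run began further in, at base 6 and base 7. RPS2 and RPL23A, which also stood apart above, had no entry and are in neither set. Among the 46 with it were RPL11 and, of the members that headed the polysome falls, RPL39, RPL38, RPS21, RPL35A and RPLP2.

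Other mRNAs counted among the TOP class were set beside the members, from a list of translation factors and related genes of which 25 were tested. Whether their own annotated starts hold the tract was not looked at. EEF1A2 among them was barely detected, at 0 to 3.74 CPM. On polysomes 8 of the 25 rose with sorafenib and 1 fell, with a median log2 change of 0.46, and in the light fraction 16 fell and 0 rose, with a median of -1.11. The shares over all genes tested were 20.9% higher and 28.8% lower on polysomes, and 17.7% lower and 11.7% higher in the light fraction. The difference between the fractions passed in 17 of 25, all higher on polysomes, where 12.8% of all genes tested were higher, with a median of 1.54, against 0.43 in the members. EIF3A, a scaffold subunit of an initiation factor, stood at 334, 266 and 309.6 CPM in sorafenib polysomes, against 118, 81.9 and 94.2 CPM in vehicle polysomes (1.63, edgeR adjusted p = 4.92e-05). EEF2, the translocation factor of elongation, stood at 1026, 841 and 743 CPM in sorafenib polysomes, against 364, 344 and 261 CPM in vehicle polysomes (1.43, edgeR adjusted p = 0.00068). Neither overlapped between treatments. EEF1G (1.39), HNRNPA1 (1.31) and EIF4B (1.05) rose as well, and BTF3, a subunit of the nascent polypeptide-associated complex, fell (-0.89). In vehicle cells 22 of the 25 were lower in polysomes than in the light fraction (17.8% of all genes tested), with a median of -2.14, next to -2.37 in the members.

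FAU, a ribosomal protein gene outside the rule, and the paralogues fell on polysomes. FAU, which yields RPS30 as a fusion with a ubiquitin-like protein, stood at 976, 1088 and 799 CPM in sorafenib polysomes, against 1670, 1793 and 1951 CPM in vehicle polysomes, and changed by -0.92 (edgeR adjusted p = 0.0114). Of 8 paralogue genes listed 5 were tested, and all 5 fell on polysomes (28.8% of all genes tested), RPL36AL by 1.59, RPS27L by 1.51, RPL26L1 by 1.34, RPL7L1 by 0.93 and RPL22L1 by 0.93 on the log2 scale. RPL36AL stood at 149, 168 and 156 CPM in sorafenib polysomes, against 502, 478 and 442 CPM in vehicle polysomes, without overlap. In vehicle cells 4 of these 5 were higher in polysomes than in the light fraction (18.3% of all genes tested), RPL36AL by 1.32, RPL26L1 by 1.27, RPS27L by 0.87 and RPL7L1 by 0.68, as RPS26 was, whereas RPL22L1 fell by 1.64 and FAU changed by 0.16 without passing (edgeR adjusted p = 0.692).

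Among 16 regulators of TOP translation, LARP1, which binds the tract, stood at 29.4, 20.6 and 36.7 CPM in the sorafenib light fraction, against 90.2, 88.1 and 67.6 CPM in the vehicle light fraction (-1.42, edgeR adjusted p = 0.00122), and changed by 0.14 on polysomes without passing. EIF4EBP1, which encodes a repressor of cap-dependent initiation, stood at 54.7, 49.5 and 65.0 CPM in sorafenib polysomes, against 155, 155 and 118 CPM in vehicle polysomes (-1.33, edgeR adjusted p = 9.4e-05), and rose in the light fraction (0.88). EIF4EBP2, also on the list, fell both on polysomes (-1.28, edgeR adjusted p = 0.000411) and in the light fraction (-1.38, edgeR adjusted p = 0.000691). In all 2 of the 16 rose and 4 fell on polysomes, and 3 rose and 6 fell in the light fraction. Of 10 chaperones and assembly partners of ribosomal proteins 3 rose and 2 fell on polysomes. With 20.9% of all genes tested higher and 28.8% lower on polysomes, and 11.7% and 17.7% in the light fraction, the polysome counts of both lists were near those of any genes. PDCD2, which escorts RPS2, stood at 55.7, 53.5 and 55.1 CPM in sorafenib polysomes, against 299, 273 and 312 CPM in vehicle polysomes (-2.43, edgeR adjusted p = 6.27e-07). TSR2, the chaperone of RPS26, changed by -0.41 on polysomes (edgeR adjusted p = 0.159) and by 0.29 in the light fraction (edgeR adjusted p = 0.407), and neither passed. AK6, a partner in the assembly of RPS14, fell by 1.81 on the log2 scale. RRS1 and HEATR3, which take part in loading RPL5 and RPL11, rose by 0.82 and 0.64, and GRWD1, the chaperone of RPL3, rose by 0.57. These groups were chosen with earlier results in view, and their counts are descriptions.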

How the data were processed

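The gene counts of 12 libraries were used as the authors deposited them, as whole-number counts that had not been normalized. Per the submitters' processing notes the build was GRCh38, version p12. No source used here names an aligner, a counting tool, an annotation or whether strand was used. All 12 count columns were matched to samples by the labels.

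The members and every gene list were chosen with earlier results of these data known. In the count table filterByExpr on the 4 groups kept 14955 of 57353 rows. Counts were scaled by TMM and fitted once over all libraries, without a block, by the quasi-likelihood method of edgeR 4.0.16 (with limma 3.58.1, R 4.3.3), and p-values were adjusted by Benjamini-Hochberg over all genes and called under 0.05. Each SE was taken as the size of the log2 change divided by the square root of the test's F. The TMM reference, chosen automatically, was sorafenib light-fraction library 2, the shallowest. The common biological coefficient of variation was 0.245. DESeq2 1.42.0 was an alternative, as were other scalings, no filter, blocks and omitted libraries. Figures used matplotlib 3.10.9.

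Values per library were given for the 4 highest and 4 lowest members of each comparison, members beyond 1.5 interquartile ranges, and 9 fixed members. Some of the genes this rule allows are not reported here. Counts identical to another tested row were found for 0 members, and every pair of replicates differed by more than sampling noise (chi-square from 9.97 to 50.7 for each degree of freedom). The labels call the experiments triplicate; where libraries are not from separate cultures, p-values measure only the spread between them. Precision follows the totals, from 511065 to 13336689 counts, and is lowest in the sorafenib light fraction.

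Per the labels, a polysome and a light library that share treatment and number come from 1 culture. The correlation of their deviations from their groups' means was 0.05, 0.04 and 0.04 in sorafenib cultures and 0.14, -0.07 and 0.33 in vehicle cultures. Sorafenib polysome library 3 carries the sample index of vehicle light-fraction library 1 in the labels, whereas the other indices follow the library number; no source used here says why. Start sequences are from RefSeq, GRCh38.p14, matched by symbol, and 15 members without an entry were left out of the tract counts. Transcript lengths were not used, so levels of different genes were not compared.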

Additional observations from a re-analysis of the deposited data

Results flagged for a closer look

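The sorafenib effect differed between polysomes and the light fraction in 12 ribosomal protein genes, by edgeR's test of the difference itself with Benjamini-Hochberg adjustment. It was higher on polysomes in 13% of the members and lower in 2.6%, where 12.8% of all genes tested were higher and 10.7% lower. The share of members that were higher was thus near that of all genes. On the log2 scale, polysome effect minus light-fraction effect, the difference was 2.53 in RPL3 (adjusted p = 0.000887), 2.41 in RPS2 (0.00292), 2.06 in RPL4 (0.00282), 2.01 in RPL11 (0.0101) and 1.92 in RPS4X (0.00429). It was 1.68 in RPL6 (0.0288), 1.57 in RPLP0 (0.0137), 1.53 in RPSA (0.0246), 1.45 in RPL7 (0.0322) and 1.33 in RPLP1 (0.0488). In the other direction it was -2.44 in RPS26 (0.000114) and -1.23 in RPL35A (0.0224). The sorafenib light fraction, which enters every one of these values, holds the 2 shallowest libraries.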

How the results depend on the processing

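Counts below are of ribosomal protein genes that passed the test, and the share of all genes called moved as well. Of all genes 28.8% fell on polysomes, 3.63% without the low-count filter, 21% with TMM within the fraction and 15.8% to 24.9% without 1 library. In the light fraction 17.7% fell, 8.8% with library totals, 14.1% with only the groups compared and 9.12% to 17.7% without 1 library. The difference was higher in 12.8%, 6.16% without the filter, 13.6% with DESeq2 and 8.74% to 17.3% without 1 library. No called result among the 130 of the named members changed direction under the alternatives run; the other members were followed by counts only. The 29 falls on polysomes became 4 without the low-count filter, 13 with TMM within the fraction, 11 with the least favourable of 11 other TMM references and 8 to 24 with each library left out in turn. The 2 rises there became 5 without sorafenib light-fraction libraries 1 and 2, 5 with only the libraries of the groups compared and 0 to 5 with each library left out. The 55 falls in the light fraction became 33 with library totals only, 4 without sorafenib light-fraction libraries 1 and 2, 24 with only the groups compared and 19 to 56 with each library left out, and the 0 rises became 1 with library totals, 1 with DESeq2 and 0 to 1 with each library left out. For the difference between fractions, the 10 higher members became 18 without the filter, 16 with DESeq2 and 7 to 30 with each library left out, and the 2 lower ones became 7 with library totals, 5 with DESeq2, 1 without the filter, 1 without both shallow libraries, 1 with the least favourable TMM reference and 1 to 3 with each library left out. In sorafenib cells the 75 members lower in polysomes became 69 with library totals and 61 without the low-count filter. With each library left out they numbered 54 to 75, where 6.11% to 15.3% of all genes were lower. The 0 members higher in polysomes there became 1 with library totals and 0 to 1 with each library left out. In vehicle cells the 76 lower members became 70 with library totals (5.86% of all genes) and 75 without the low-count filter (4.17%). With each library left out the count there stayed at 76 lower and 1 higher. Without mitochondrially encoded genes the member share of the vehicle light fraction was 35.7% (small subunit 17.5%), and that of the large subunit was 12.3% in the sorafenib light fraction and 18.2% in the vehicle light fraction. Without the 3 highest members of each subunit the large-to-small ratio was 1.12 in sorafenib polysomes, 1.13 in vehicle polysomes and 1.36 in the sorafenib light fraction. Scaled to library totals, the polysome-over-light log2 change in vehicle cells turned to 0.14 in BTF3, 0.64 in HEATR3 and 0.62 in LTV1, none of them a member. The cause was not tested in any of these, apart from the smaller number of libraries or genes that some alternatives use.

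Same-numbered libraries of the treatments share only a number, and their deviations correlated at -0.20, -0.04 and 0.02 on polysomes and at -0.01, -0.15 and -0.15 in the light fraction. With the replicate number as a replicate block, 23 members passed on polysomes, against 31 without it, and 54 passed in the light fraction, against 55. With the culture as a block, 14 passed for the difference, against 12, with 11 in both, 77 in vehicle cells with and without it, and 73 in sorafenib cells, against 75, where RPS2 and RPS7 lost their calls. Depth limits the sorafenib light fraction most, since its libraries 1 and 2 hold 2060384 and 511065 counts.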
